A study of Homo sapiens with 2 samples.

Results

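The genes described here are the ion and metal solute carriers, membrane proteins that move inorganic ions, phosphate and metals across the plasma membrane and the membranes of organelles. Members were the genes whose symbol on the array platform is 1 of 12 family stems followed by a number alone: SLC4A (bicarbonate and anion exchange), SLC8A (sodium-calcium exchange), SLC9A (sodium-proton exchange), SLC11A (proton-coupled divalent metal import), SLC12A (cation-chloride cotransport), SLC20A and SLC34A (sodium-phosphate cotransport), SLC30A (zinc export from the cytosol), SLC31A (copper uptake), SLC39A (zinc and metal import to the cytosol), SLC40A (iron export) and SLC41A (magnesium transport). The rule gave 64 genes of 18665, measured by 92 of the 27577 probes that carry a single symbol. SLC4A1AP and SLC9A3-OT1 share a stem but are no numbered carriers, and they were left out.

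RNA of KYN2 cells, which derive from a human hepatocellular carcinoma, was hybridised to Illumina HumanWG-6 BeadChips. The group labelled HSF1 knockdown came from a stable line kept in puromycin after transfection of an shRNA plasmid against HSF1, the heat shock transcription factor, and the other group is labelled control. The labels do not say which plasmid the control cells received, nor whether the stable line is 1 clone or a pool. Each group holds 1 array, so no difference has a replicate check, no test was possible, and genes are called by size alone.

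Ion carriers set the pH, chloride, calcium and volume of a cell, and in the liver they also drive the secretion of bile. Zinc, iron, copper and manganese are needed by many enzymes but are harmful in excess, and importers and exporters together hold their cytosolic amounts within limits. The SLC39 (ZIP) proteins bring zinc and related metals into the cytosol and the SLC30 (ZnT) proteins move them out of it, so these families work in opposite directions. The hepatocyte takes up, stores and releases these metals for the rest of the body.

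A few facts of the arrays bear on all values below. A probe was called detected at a detection p under 0.01, which 11707 of 48802 probes met in the control array and 12200 in the knockdown-labelled one. Levels are log2 values after background correction and quantile normalization, and a difference is the knockdown-labelled level minus the control level. For a difference read from 1 probe, an SD of 0.34 on the log2 scale was estimated from 1352 genes with 2 probes detected on both arrays, and it leaves out the variation between cultures. The HSF1 probes did not settle the label: one fell in signal from 164.3 to 58.2, while its deposited detection value went from 0.995 to 1, and the other stood at 77.9 and 81.3 and was detected on neither array. All 7 hepatocyte markers were detected in the knockdown-labelled sample and 5 in the control sample, and no fibroblast, endothelial or erythroid marker was detected on either. Of 5 leukocyte markers, CD68 was detected on both arrays, LYZ (signals of 78.0 and 667.2) and CD14 (76.0 and 256.7) on the knockdown-labelled array, and PTPRC and CD3E on neither. The summed signal of that list was 794.5 for the control sample and 1395.7 for the knockdown-labelled sample, and its part in the differences below was not tested. In RNA from a whole culture, fewer cells of a kind and less RNA per cell cannot be told apart.

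Of the 64 carriers, 31 were detected on both arrays, 3 on the control array alone, 1 on the knockdown-labelled array alone and 29 on neither. Among the 31, the knockdown-labelled level exceeded the control level by 2-fold or more for 6: SLC4A11, SLC12A2, SLC39A14, SLC41A2, SLC39A11 and SLC41A1. Lower by 2-fold or more were 2, SLC20A2 and SLC30A3, and 23 lay within 2-fold, with differences from -0.88 to 0.92. The 6 higher members are 19.4% of the 31, beside 9.89% of the 7511 genes detected on both arrays, and the 2 lower members are 6.45%, beside 10.4%. The higher share depended on the detection limit. Of the 6, SLC4A11, SLC12A2, SLC41A1 and SLC41A2 had detection p values between 0.005 and 0.01 on the control array, and with detection called at a p under 0.005 they leave the count, so that 2 of 25 members (8.0%) were higher beside 9.16% of all genes. Among all 746 genes that pass the first limit and not the second, 16.5% were at least 2-fold higher.

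The median of the members lay at that of all genes. Over the 35 detected on either array the median difference was -0.03, the same value with members detected on 1 array at their bound, beside -0.03 over the 8822 genes detected on either array. Of the 31 detected on both, 16 lay above 0 and 15 below, beside 3505 above and 4001 below of the 7511 genes. Within 1 probe SD of 0 lay 13 members, and beyond 2 probe SDs 14. These SD counts were not made over all genes, so they show nothing particular to the carriers. The 304 other solute carrier genes on the platform had 14 higher and 15 lower of 115 detected on both arrays, which is 12.2% and 13.04%. No test of the difference between those carriers and the members was possible with 1 array a group.

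**Figure D1:**
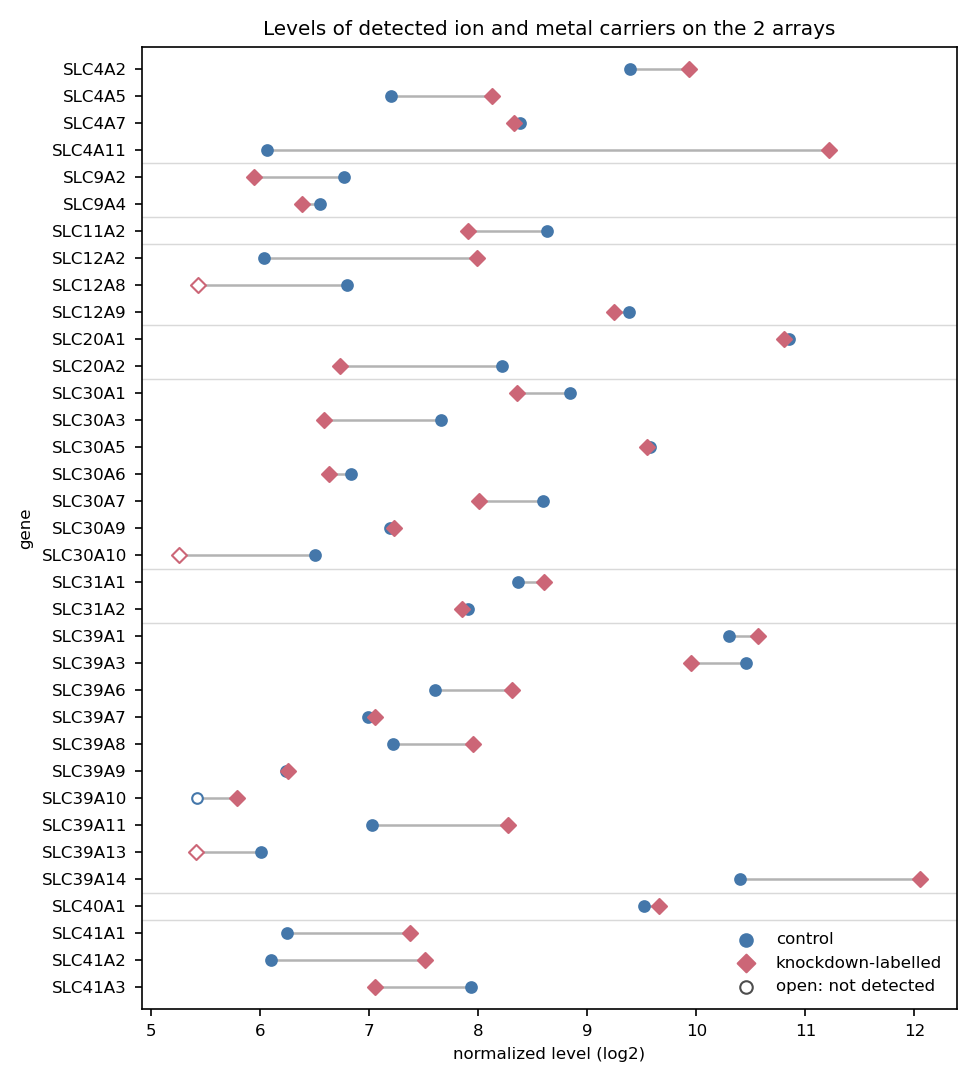
Normalized log2 levels of the 35 carriers detected on at least 1 array, in family order, with the control array as circles and the knockdown-labelled array as diamonds; open symbols mark an array on which the gene was not detected. Levels can be compared within a gene, not between genes, since each has its own probe; the line of SLC4A11, from 6.07 to 11.22, is the longest.

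**Figure D2:**
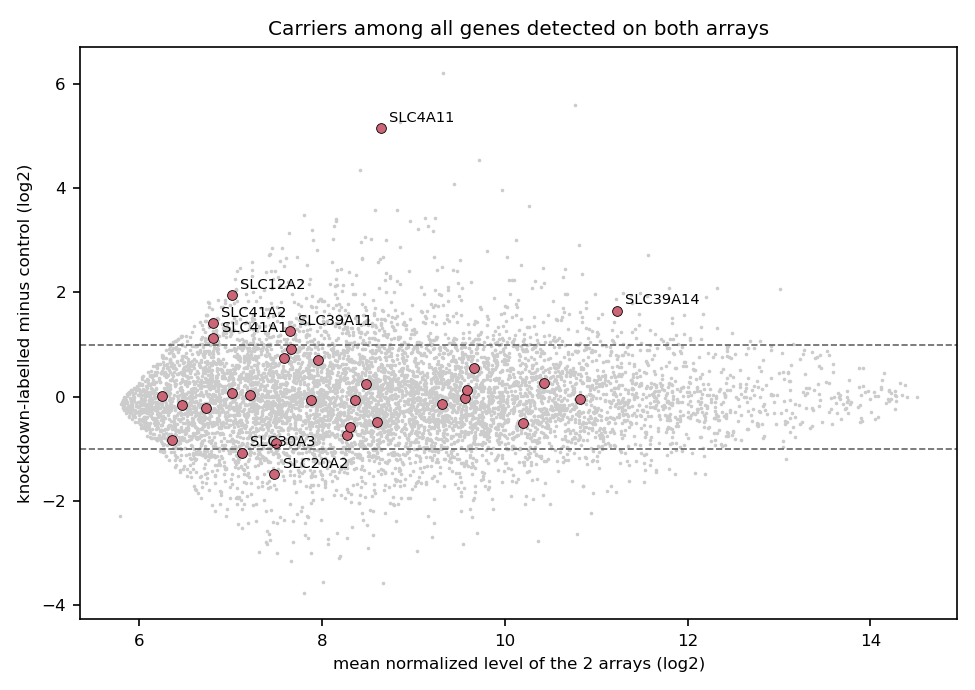
Difference between the arrays (knockdown-labelled minus control, log2) against the mean normalized level (log2) for the 7511 genes detected on both arrays, in grey, and the 31 carriers among them, in red. The dashed lines mark 2-fold; 6 carriers lie above the upper line and 2 below the lower one.

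SLC4A11 had the largest difference of all members. Its control signal was 107.4, just above the detection limit with a detection p of 0.00791, and its knockdown-labelled signal 2215.2. The deposited signals thus differed 20.6-fold. After background correction the level went from 6.07 to 11.22, a difference of 5.15 or 35.5-fold, and only 3 of the 7511 genes had a larger one. SLC4A11 differs from its relatives in that it is known as a proton and water pathway and not as a bicarbonate carrier, and its mutations cause dystrophy of the corneal endothelium. The difference was 4.43 in the authors' deposited log2 table and 4.50 without background correction.

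The bicarbonate carriers of the same family lay within 2-fold. SLC4A2, the chloride-bicarbonate exchanger that helps hepatocytes and bile duct cells secrete bicarbonate into bile, had signals of 744.9 and 966.5 (difference 0.55). SLC4A5, an electrogenic sodium-bicarbonate cotransporter, had 191.2 and 308.9 (0.92), just short of 2-fold. For SLC4A7, an electroneutral sodium-bicarbonate cotransporter, signals were 388.3 and 348.7 (-0.06), and a second detected probe gave 0.58, so its probes differ in sign. The remaining 6 members, SLC4A1, SLC4A3, SLC4A4, SLC4A8, SLC4A9 and SLC4A10, were detected on neither array.

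Sodium-proton exchangers, which export acid in exchange for sodium, were few among the detected genes. SLC9A2, of epithelial plasma membranes, had signals of 150.7 and 102.0, a difference of -0.83. SLC9A4, another exchanger of epithelia, had 134.3 and 123.5, a difference of -0.17 that is smaller than the probe SD. SLC9A3, SLC9A5, SLC9A8 and SLC9A9 were detected on neither array, as were the sodium-calcium exchangers SLC8A1, SLC8A2 and SLC8A3, best known from excitable cells.

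Of the cation-chloride cotransporters, SLC12A2 was higher and SLC12A9 lay near 0. SLC12A2 (NKCC1), which loads cells with sodium, potassium and chloride and helps them regain volume, rose from a signal of 106.1 to 285.2. The level difference was 1.95, or 3.86-fold, with a detection p of 0.00922 on the control array. Its second probe had signals of 58.2 and 83.9, was detected on neither array and differed by 0.85 in the same direction. SLC12A8, for which transport of a nicotinamide nucleotide has been described in mice, was detected on the control array alone, with signals of 153.1 and 82.8. The deposited signals thus differed by 1.85-fold, under 2-fold, while the bound after background correction was 2.15-fold. SLC12A9, a member whose cargo is little known, lay near 0 at 740.6 and 619.4 (-0.13). SLC12A1, SLC12A3, SLC12A4, SLC12A5 and SLC12A7 were detected on neither array.

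Of the phosphate carriers, the pair of widely expressed importers parted. SLC20A1 (PiT1) had signals of 2021.6 and 1693.9, which after normalization is a difference of -0.05. SLC20A2 (PiT2), whose loss causes calcification in the brain, fell from 350.4 to 145.5, a difference of -1.49 or 2.81-fold, and 257 of the 7511 genes lay lower. The renal, intestinal and lung carriers SLC34A1, SLC34A2 and SLC34A3 were detected on neither array.

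All 3 magnesium carriers of the SLC41A family were detected, and they split. SLC41A1, a sodium-magnesium exchanger of the plasma membrane, rose from a signal of 116.5 to 202.2 (difference 1.12, 2.18-fold). SLC41A2 rose from 109.1 to 218.2 (1.42, 2.67-fold). Both lay close to the detection limit on the control array, with detection p values of 0.00527 and 0.00791. SLC41A3, linked to magnesium export from mitochondria, lay the other way, at 293.2 and 171.3 (-0.88), and a second detected probe gave -0.75. The SLC41A1 difference stayed under 2-fold in 3 of the 7 other settings, at 0.80 in the authors' deposited log2 table. With equal medians in place of quantile normalization it was 1.25. The remaining settings, changed detection limits and the mean over detected probes, cannot alter the difference of a gene with 1 probe.

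Metal importers of the SLC39A family mostly lay above 0. Of 14 members, 8 were detected on both arrays, 2 of them at least 2-fold higher and 0 lower. Positive were 7 of the 8 differences, beside 3505 of the 7511 genes, and 6 of the 8 with the mean over detected probes. Among the positive ones, those of SLC39A1, SLC39A7 and SLC39A9 were smaller than the probe SD. SLC39A14 (ZIP14), which brings zinc, manganese and free iron into hepatocytes and is induced in liver inflammation, rose from a signal of 1488.8 to 3975.6. Its difference of 1.65, or 3.14-fold, rests on a bright probe and ranged from 1.57 to 1.65 over the other settings. SLC39A11 (ZIP11), an importer described in Golgi and nuclear membranes, rose from 172.2 to 337.2 (1.25, 2.38-fold).

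The close relatives SLC39A8 and SLC39A6 were higher by less than 2-fold. SLC39A8 (ZIP8), the nearest relative of SLC39A14 and a manganese and zinc importer, had signals of 192.6 and 279.9, and its pair of probes gave 0.74 and 0.83. SLC39A6 (ZIP6), first described as an oestrogen-regulated gene, had 240.3 and 344.6, and its probes gave 0.71 and 0.72. Each of these 4 probe values exceeds 2 times the probe SD, and probes of the same gene are read from the same RNA.

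The other importers lay close to 0 or had probes that disagree. SLC39A1 (ZIP1), a widely expressed plasma membrane importer, had signals of 1386.5 and 1450.1 (0.26), and SLC39A9 had 116.1 and 116.7 (0.02). SLC39A7 (ZIP7), which releases zinc from the endoplasmic reticulum, had 168.8 and 171.1 (0.06), while its other detected probe gave -0.58. SLC39A3 (ZIP3) had 1545.8 and 972.7 (-0.51), with its 3 detected probes running from -0.51 to 0.06. SLC39A10 was detected on the knockdown-labelled array alone (83.4 and 95.5) with no fold above 1 at its bound. SLC39A13, of intracellular vesicles, was detected on the control array alone (104.8 and 82.4), and was at least 1.24-fold lower in the other. SLC39A2, SLC39A4, SLC39A5 and SLC39A12 were detected on neither.

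The SLC30A family, the zinc exporters, lay mostly below 0. Of 10 members, 6 were detected on both arrays, 1 of them at least 2-fold lower and 0 higher. Negative were 5 of the 6 differences, beside 4001 of the 7511 genes. Among the negative ones, those of SLC30A5 and SLC30A6 were smaller than the probe SD. The median over the 6 was -0.35, beside 0.49 over the 8 importers and -0.06 over the 7511 genes. Over the 7 other settings the exporter median ran from -0.48 to -0.28 and the importer median from 0.32 to 0.71. Over members detected on either array, with those detected on 1 array at their bound, the importer median was 0.16 and the exporter median -0.48. These medians describe 1 pair of arrays, and their difference was not tested. SLC30A3 (ZnT3), which fills synaptic vesicles with zinc in neurons, fell from a signal of 248.9 to 136.1 (-1.07, 2.10-fold). Its difference was under 2-fold in 4 of the 7 other settings, at -0.81 in the authors' deposited log2 table. The other 3, changed detection limits and the mean over detected probes, cannot alter the difference of a gene with 1 probe. The SLC30A3 call thus held in no setting that could change it. SLC30A1 (ZnT1), the zinc exporter of the plasma membrane, had 519.7 and 355.1, with probes at -0.48 and -0.30.

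The exporters of the secretory pathway and the mitochondrion were within 2-fold. SLC30A5 and SLC30A6, which form a joint carrier that loads zinc into enzymes in the early secretory pathway, had differences of -0.03 (852.0 and 743.5) and -0.21 (156.4 and 138.7). SLC30A7, of the Golgi apparatus, had signals of 444.1 and 288.8 (-0.58). SLC30A9, linked to zinc export from mitochondria, had 189.6 and 186.5 (0.04). SLC30A10, a manganese exporter whose loss causes manganese overload in the liver and brain, was detected on the control array alone (131.6 and 77.3), and its signals differed by 1.70-fold. SLC30A2, SLC30A4 and SLC30A8 were detected on neither array.

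Iron and copper carriers differed little. SLC40A1 (ferroportin), the iron exporter, had signals of 817.4 and 798.5 (0.13), and its second probe gave -0.09. SLC11A2 (DMT1), which carries ferrous iron out of endosomes and across the gut wall, had 456.2 and 272.4 (-0.73). SLC31A1 (CTR1), the copper importer of the plasma membrane, had 383.3 and 410.0 (0.23), and SLC31A2, of endosomes and lysosomes, 288.0 and 264.6 (-0.06). The 2 copper carriers and ferroportin thus lay within 1 probe SD of 0, while SLC11A2 lay beyond 2. SLC11A1, a carrier of macrophage phagosomes, was detected on neither array.

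**Figure D3:**
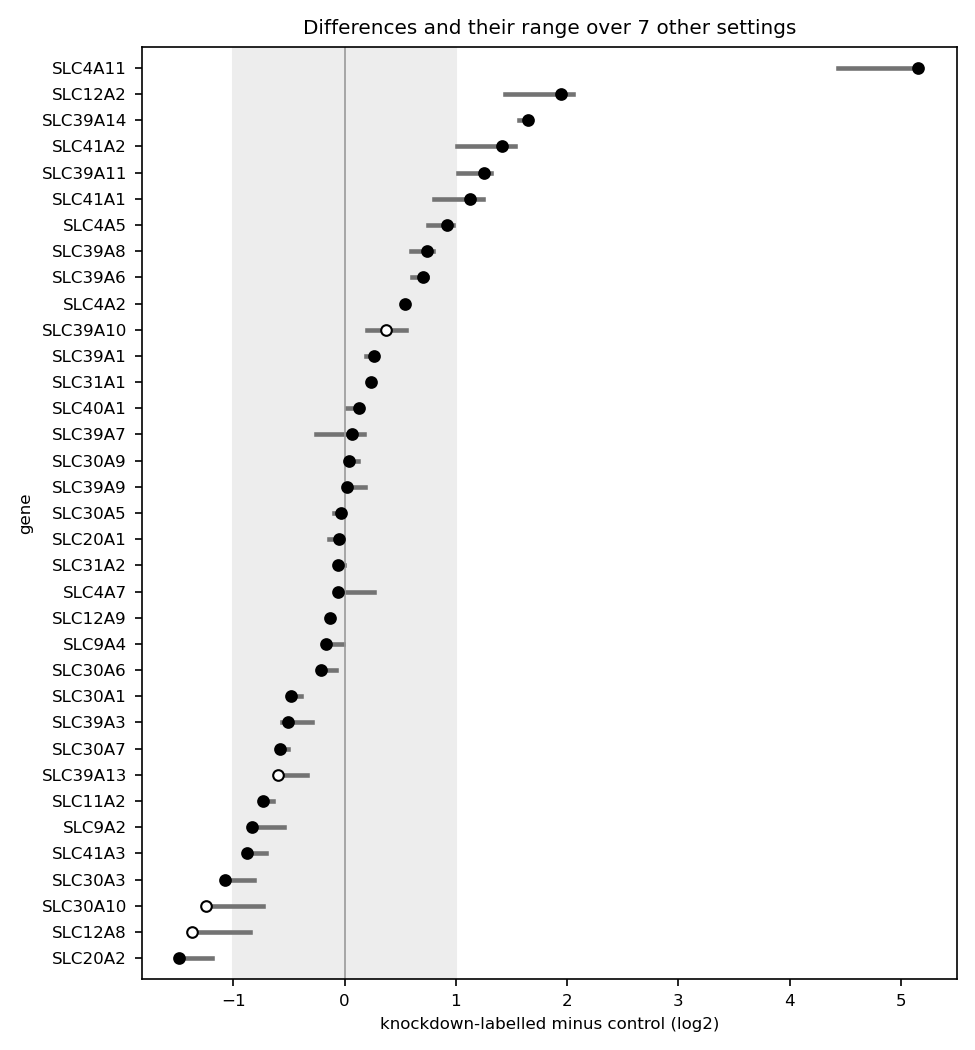
Difference between the arrays (knockdown-labelled minus control, log2) of the 35 detected carriers, ordered by size; points are the main values, open where a gene was detected on 1 array alone, and bars span 7 other settings. The grey band marks 2-fold; SLC4A11, SLC12A2, SLC39A14, SLC41A2 and SLC39A11 stay above it throughout, and SLC20A2 stays below it.

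**Figure D4:**
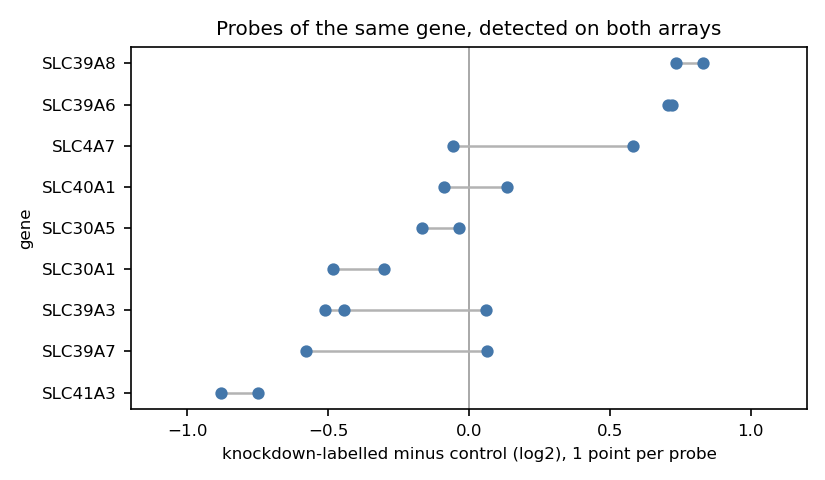
Differences (knockdown-labelled minus control, log2) of each probe, for the 9 carriers with more than 1 probe detected on both arrays; 1 point is 1 probe and lines join probes of a gene. The probes of SLC4A7, SLC40A1, SLC39A3 and SLC39A7 lie on both sides of 0.

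In all, 9 members had more than 1 probe detected on both arrays, and the probes of 4 of them differed in sign. None of those 4 was called at 2-fold. The widest range among probes of a member was 0.64, for SLC39A7 and for SLC4A7. All 8 members called at 2-fold rest on a single detected probe each, so no second detected probe checks the size of any of them.

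Promoter windows were searched for the motif of HSF1 and for that of MTF1, the factor that raises zinc exporter and metallothionein genes when zinc is high. The windows, from RefSeq (GRCh38.p14), run from 250 bases before to 50 bases after an annotated start, and 57 of the 64 members matched, with 91 windows. HSF1 binds inverted repeats of GAA: GAANNTTC or TTCNNGAA was taken as 2 units and GAANNTTCNNGAA, which contains the 2-unit motif, as 3 units. The MTF1 motif, the metal response element, was taken as TGCACNC or TGCGCNC, and both strands were read. The 3-unit heat shock motif was in 0 of 91 member windows and in 0.490% of 35116 windows of all genes. The 2-unit motif was in 10 of 91 (10.99%), beside 13.5% of all windows, and the metal response element in 34 (37.4%), beside 29.6%. Member windows had a median GC content of 64.0%, beside 58.7% of all windows, and the motifs differ in GC content themselves. Of the 6 higher members, 4 had windows, and 0 of these 5 windows held any of the motifs; of the 2 lower members, 1 had windows, and both of its windows held 1 or more. Of all windows, 40.1% held any of them, and so few member windows allow no comparison. A match is a run of letters and not a shown binding site.

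The 4 windows below show the metal response elements of SLC30A1, the metal response elements and the heat shock motif of SLC30A3, and the absence of such letters in windows of 2 members that rose. They are examples and allow no comparison. SLC30A1 itself lay within 2-fold, and members above 0, among them SLC39A6, SLC39A8 and SLC4A2, also held metal response elements. For SLC4A11 and SLC39A14, also higher, there was no window. Each is written 5′ to 3′ along its gene, in lower case with matches to either motif in capitals. SLC30A1 lies on the minus strand (chr1:211579112-211579411) and holds metal response elements from base -49 to -43 and from base 25 to 31, counted from the start site as base 1. SLC30A3, also on the minus strand (chr2:27275297-27275596, the first of its 2 windows), holds a 2-unit heat shock motif from -156 to -149 and metal response elements from -116 to -110 and from -20 to -14. SLC12A2 lies on the plus strand (chr5:128083516-128083815) and SLC41A1 on the minus strand (chr1:205813149-205813448), and neither window has a match.
SLC30A1: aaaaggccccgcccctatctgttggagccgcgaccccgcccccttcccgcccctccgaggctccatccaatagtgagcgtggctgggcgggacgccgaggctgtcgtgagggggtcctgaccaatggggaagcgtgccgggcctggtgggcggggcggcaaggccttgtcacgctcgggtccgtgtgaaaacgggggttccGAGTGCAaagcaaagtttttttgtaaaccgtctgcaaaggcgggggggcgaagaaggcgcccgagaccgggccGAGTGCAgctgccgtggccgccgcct
SLC30A3: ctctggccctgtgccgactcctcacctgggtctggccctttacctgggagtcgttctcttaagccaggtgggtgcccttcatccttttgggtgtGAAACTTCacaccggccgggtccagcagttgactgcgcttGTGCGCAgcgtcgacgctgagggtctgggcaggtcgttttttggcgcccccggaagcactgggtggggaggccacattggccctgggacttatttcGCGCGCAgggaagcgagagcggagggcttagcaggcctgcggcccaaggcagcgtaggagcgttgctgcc
SLC12A2: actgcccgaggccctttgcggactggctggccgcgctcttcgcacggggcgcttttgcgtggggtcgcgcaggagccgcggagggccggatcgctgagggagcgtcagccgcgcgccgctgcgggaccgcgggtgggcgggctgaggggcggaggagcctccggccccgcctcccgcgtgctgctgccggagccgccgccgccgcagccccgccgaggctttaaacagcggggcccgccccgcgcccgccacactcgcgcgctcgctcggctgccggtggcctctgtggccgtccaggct
SLC41A1: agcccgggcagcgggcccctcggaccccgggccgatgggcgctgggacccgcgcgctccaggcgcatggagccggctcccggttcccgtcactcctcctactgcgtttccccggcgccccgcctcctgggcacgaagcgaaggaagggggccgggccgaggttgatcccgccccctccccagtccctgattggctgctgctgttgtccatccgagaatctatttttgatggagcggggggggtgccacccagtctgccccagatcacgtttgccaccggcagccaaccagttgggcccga

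Genes that work with these carriers were read from 9 lists, whose counts stand beside the same 9.89% and 10.4% of all genes. Of the metallothioneins and MTF1, 4 of 10 measured genes were detected on both arrays, 1 of them at least 2-fold lower and 0 higher. MT1X, a zinc and copper binding protein whose gene is induced through metal response elements, fell from a signal of 1104.8 to 344.7 (-1.67, 3.17-fold). MT1F lay at -0.83, MT2A at -0.00 and MTF1 itself at -0.08, so the median was -0.46.

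Of 15 iron genes, 8 were detected on both arrays, 1 lower and 0 higher, with a median of -0.20. Below 0 lay 5 of the 8, beside 4001 of the 7511 genes, and TF (transferrin), the iron carrier of plasma, had signals of 8765.9 and 14092.2 (0.81). CP (ceruloplasmin), the copper oxidase that works with ferroportin to load iron on transferrin, fell from 234.6 to 92.6 (-1.84, 3.59-fold). The deposited signals of CP differed by 2.53-fold, and the authors' deposited log2 table gave -1.27. Its detection p on the knockdown-labelled array was 0.00791, so with detection called at a p under 0.005 it leaves the count. STEAP3, the reductase that prepares endosomal iron for SLC11A2, was detected on the control array alone at 452.1, with 90.1 on the other (detection p 0.0105). Its signals differed by 5.02-fold, and the bound after background correction was 7.59-fold. Of 9 copper genes, 8 were detected on both arrays and all 8 lay below 0, beside 4001 of the 7511 genes. Their median was -0.36, and ATOX1, COX17 and SOD1 lay within 1 probe SD of 0. Among the 8, COMMD1, which helps copper leave hepatocytes, was at least 2-fold lower, from 574.9 to 261.2 (-1.17).

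Regulators of cation-chloride cotransport and sodium-proton exchange lay mostly above 0, 7 of 10 of them, beside 3505 of the 7511 genes. Smaller than the probe SD were NHERF1 (0.11), above 0, and EZR (-0.17) and STK39, below 0. Of 16 regulators measured, 10 were detected on both arrays, 2 higher and 1 lower, with a median of 0.64. The higher genes were CAB39L (249.9 to 499.7, difference 1.24) and CAB39 (1488.0 to 2624.1, 1.06), scaffolds that activate the kinases acting on SLC12A2. The CAB39L call depends on the probe read, since the mean over its detected probes was 0.49, under 2-fold. The lower gene was SGK3, a kinase of endosomes, at 270.7 and 130.8 (-1.30). WNK1 and OXSR1, the kinases that switch SLC12A2 on, lay within 2-fold at 0.96 and 0.79, and STK39 at -0.04. SGK1, a hormone- and volume-induced kinase of ion transport, was detected on the knockdown-labelled array alone, at 90.5 and 1398.0. Its signals differed by 15.4-fold, and the bound after background correction was 25.6-fold.

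The remaining ion lists were smaller. Of the sodium-potassium pump genes, 3 of 7 were detected on both arrays. The beta subunit ATP1B3 was higher (2335.3 to 4612.7, 2.29-fold), with ATP1B1 at 0.97 and ATP1B2 at -0.35. No alpha subunit of the pump was among the 7. Of 14 carbonic anhydrases, which feed bicarbonate carriers, 3 were detected on both. CA11, a member without enzyme activity, was higher (106.1 to 249.8, 1.72), with CA2 at 0.98 and CA13 at -0.38. CA11 had a control detection p of 0.00922, as SLC12A2 did. Calcium pumps and intracellular calcium entry had 5 of 10 detected on both arrays and 0 called in either direction.

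Among magnesium genes, 8 of 11 were detected on both arrays, 1 higher and 0 lower. The higher gene was MAGT1, named for magnesium transport, at 297.8 and 524.6 (1.03). On the knockdown-labelled array alone were TRPM6, a magnesium channel of epithelia (54.4 and 320.7), at least 5.09-fold higher, and CNNM1 (89.8 and 422.6), whose signals differed by 4.71-fold. The mitochondrial channel gene MRS2 lay near 0 (-0.07), as did the list's median over the 8 (0.07). Of 10 genes on the phosphate list, 7 were detected on both, 3 higher and 0 lower. Higher were ENPP1, which makes pyrophosphate (238.0 to 940.5, 2.31), and IP6K2, of inositol pyrophosphate synthesis (329.1 to 650.6, 1.21). Also higher was KLB, a coreceptor for hormones of the FGF family (201.5 to 425.2, 1.35), whose part in phosphate handling was not tested. XPR1, the phosphate exporter, lay at -0.57.

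**Figure D5:**
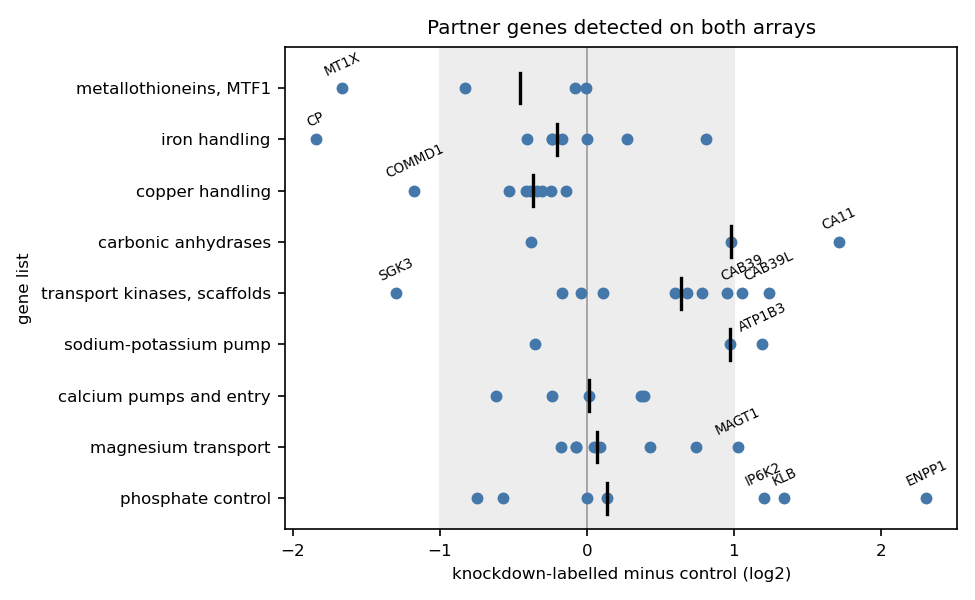
Differences between the arrays (knockdown-labelled minus control, log2) for genes of the 9 lists detected on both arrays; 1 point is 1 gene, black bars are list medians, and the grey band marks 2-fold. All copper and metallothionein points lie below 0, and ENPP1, at 2.31, is the highest point.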

How the data were processed

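The deposited table of non-normalized values holds, per the file headers, a bead signal (intensity on a linear scale) and a detection column for each probe on 2 arrays. The authors' detection column is a fraction that rises with the signal, so 1 minus it was used as the detection p. The authors' deposited log2 table, centred near 0 on an unknown baseline, served as an alternative for differences alone; over probes detected on both arrays they followed the log2 signal ratio with slope 0.981. The scanner software is not given in the sources used here.

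Signals were corrected with the normal-exponential model (offset 16), quantile normalized and taken to log2 with limma 3.58.1 in R 4.3.3. Where a gene has several probes, the one with the largest mean over both arrays stands for it. A gene detected on 1 array alone has a bound in place of a fold ("at least"): its level on that array minus whichever is greater on the second array, the gene's own level or the minimum among detected probes (5.84 for the control array, 5.70 for the knockdown-labelled array, leaving out the HSF1 probe with contradictory values). Such a bound is on the background-corrected scale, and the deposited signals can differ by less. The offset understates folds of dim genes. Names came from the platform annotation of 27577 probes, with none for 21212 and several for 13. The procedure was tested on simulated data, with changes larger than 2-fold in bright genes alone. That test does not cover 2-fold calls or genes near the detection limit.

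Every detected member was named, and of each partner list up to 4 genes at least 2-fold different on both arrays; others were named after their values were seen. The members and lists were chosen with earlier results of these data known. Precision is limited by the number of arrays.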

Additional observations from a re-analysis of the deposited data

How the results depend on the processing

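The count of members at least 2-fold higher, 6 in the main setting, was 5 or 6 under the other settings of background, normalization, offset, probe summary and source of values, and with detection p under 0.05. That is 16.1% to 19.4% of the members detected on both arrays, beside 7.44% to 10.4% of all genes in these settings. With detection p under 0.005, an alternative chosen after seeing the data, it was 2 of 25 (8.0%), beside 9.16% of all genes. A stricter limit can only lower this count. The size of the fall came from 4 higher members that lay near the limit on the control array. The count lower, 2 in the main setting, was 1 without background correction, 1 with equal medians, 1 with offset 50 and 1 in the authors' deposited log2 table. With detection p under 0.05, where SLC12A8 and SLC30A10 enter, it was 4. A count of 1 is 3.23% of the members detected on both arrays, and the 4 are 11.4%. Of all genes, 7.39%, 9.88%, 7.74%, 7.15% and 10.5% were at least 2-fold lower in these settings, in the same order. At 1.5-fold, 9 members were higher and 5 lower, which is 29.0% and 16.1%, beside 20.8% and 22.3% of all genes. The median difference of members ran from -0.05 to 0.02. Of 329 differences of named genes under other settings, 307 moved by less than the probe SD or not at all, and 22 by more. Part of the 307 could not move. Changed detection limits alter no gene's difference, and the mean over detected probes alters none of a gene with 1 probe. No difference that was at least 2-fold changed sign. SLC4A7 and SLC39A7, near 0, changed sign with the mean over detected probes. No paired analysis was possible because each group holds 1 array. Signal over background limits SLC4A11, SLC12A2, SLC41A1 and SLC41A2, dim on the control array.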

Other observations

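Values of carriers and names outside the counts are given here without an explanation. The 29 members detected on neither array had signals from 44.2 to 92.5 and detection p values of at least 0.0132. SLC39A5, an importer of liver, pancreas and gut, had the highest of these signals, 92.5 on the control array, with 54.8 on the knockdown-labelled array. For SLC12A5, the chloride exporter of neurons, the 2 probes pointed in opposite directions, with signals of 84.2 and 65.6 for one and 50.9 and 87.9 for the other. SLC9A3-OT1, a transcript that overlaps the sodium-proton exchanger gene SLC9A3, was detected on both arrays (249.9 and 377.4, difference 0.79), while SLC9A3 itself was detected on neither (55.3 and 54.2). SLC4A1AP, named for a protein that binds SLC4A1, lay at -0.09. These genes were chosen after their values were seen.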
